A study of Rattus norvegicus with 40 samples.

Results

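The anterior cortex libraries compare rats examined 12 months after a blast exposure with rats given a sham procedure, across all genes of the deposited anterior cortex table. They were chosen by their tissue and treatment labels and are 10 of the 40 samples of the series: 5 blast libraries (AC_4, AC_8, AC_22, AC_88 and AC_666) and 5 sham libraries (AC_11, AC_13, AC_14, AC_15 and AC_33). The other 30 samples are hippocampus, amygdala and cerebellum, 10 each, from the same time point. Neither group carries another treatment in the labels, which name no strain, sex, age at exposure, blast strength or number of exposures. Nothing in the labels says that the number in a title is an animal. The p-values therefore measure only the spread between these samples, which may be technical.

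The cortex is a layered sheet of glutamate-releasing projection neurons, held in check by several classes of interneuron that release GABA and often a neuropeptide. Astrocytes, oligodendrocytes, microglia and vessel cells make up the rest of the tissue, and RNA of a whole piece mixes all of them. Frontal cortex takes part in planning and in the control of fear and stress responses. Since the RNA comes from tissue pieces, fewer cells of a type and less RNA per cell cannot be told apart in any result given here.

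No gene differed between blast and sham past an adjusted p of 0.05. edgeR's quasi-likelihood test covered 14918 genes and called 0 of them (0.0%), with a smallest adjusted p of 0.802. An unadjusted p under 0.05 was reached by 640 genes (4.29%), of which 281 were higher in blast (1.88%) and 359 lower (2.41%). DESeq2 likewise called 0 genes, with 858 at an unadjusted p under 0.05. With 1 library left out edgeR's count was 324 (without sham AC_11) to 1885 (without blast AC_8), and the balance of directions turned in limma voom, with 390 higher and 304 lower. The smallest adjusted p of the authors' deposited table, for Hif3a, was 0.242. The genes described below are the highest ranked of a comparison in which none passed, and their values are given as measured levels.

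Among the lowest p-values, the lower genes in blast were led by Hif3a, an oxygen-response factor subunit that glucocorticoids are also known to induce. The higher genes included Grm2, a presynaptic glutamate receptor, and Gucy1b1, a subunit of the nitric oxide receptor. Hif3a stood at 1.77 ± 0.589 CPM in blast (mean ± SD, n = 5) and at 5.86 ± 2.94 CPM in sham. Grm2 stood at 60.99 ± 12.9 CPM in blast and 36.8 ± 8.98 CPM in sham (n = 5 each). CPM are counts per 1000000 counts of a library, scaled by trimmed-mean (TMM) factors. All log2 fold changes set blast against sham, and the value after ± beside a fold change is its standard error (SE).

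Library composition varied within both groups. Totals ran from 11268097 to 14973206 counts in 9 libraries, and AC_22, a blast library, had 37128383. Once all were thinned to the same total, AC_8, AC_11, AC_13 and AC_15 had 16570 to 17774 genes with a count and the other 6 had 18622 to 19259. The same 4 libraries held 21.7% to 28.2% of their counts in genes over 5000 bases, against 17.8% to 18.8% in the other 6. They also held 0.339% to 0.492% in lincRNA genes, against 0.238% to 0.288%. One of them is a blast library and the rest are sham libraries, so this split partly runs along the comparison. The first principal component, with 38.3% of the variance, placed the 4 at 17.8 to 63.5 and the other 6 at -29.8 to -25.4. The labels give no reason for the split, and its part in the results was not tested beyond the values printed beside them.

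**Figure D1:**
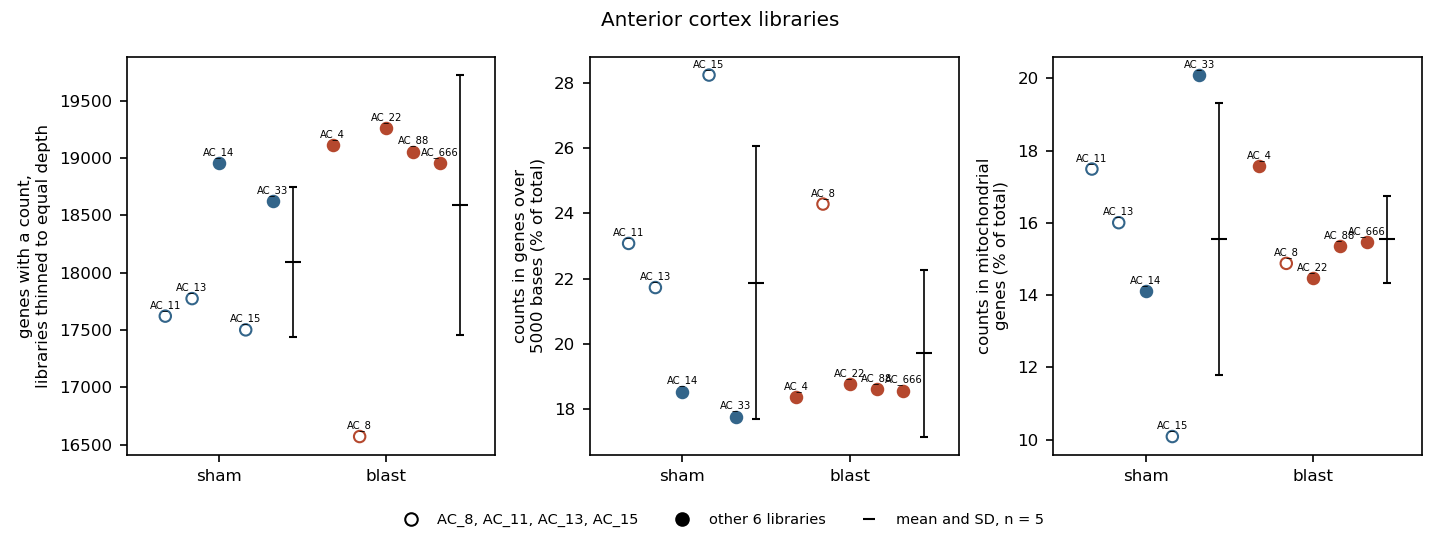
Composition of each anterior cortex library, with genes detected at equal depth (left), the percentage of counts in genes over 5000 bases (middle) and the percentage in mitochondrial genes (right); each point is 1 library, open points are AC_8, AC_11, AC_13 and AC_15, and bars are mean and SD (n = 5). The 4 open points lie at or below 17774 genes and at or above 21.7% in the left and middle panels, whereas mitochondrial percentages of blast and sham overlap.

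The plot of library composition shows that blast and sham overlap in each measure. Mean genes detected at equal depth were 18590 ± 1135 in blast and 18094 ± 651 in sham (SD, n = 5 each; two-sided exact permutation test over 252 arrangements, p = 0.413, adjusted over 3 measures p = 0.619). The percentage in long genes was 19.7 ± 2.56 in blast and 21.9 ± 4.19 in sham (n = 5 each; exact permutation p = 0.397, adjusted p = 0.619). Mitochondrial genes took 15.5% ± 1.20 and 15.6% ± 3.76 of the counts (n = 5 each; exact permutation p = 1.0). The values below are given for all 10 libraries, and beside them for the 6 libraries without the 4 (4 blast and 2 sham) or from a model with a term for the 4.

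The tissue label was checked against marker genes. Slc17a7, the vesicular glutamate transporter of cortical projection neurons, stood at 850.2 to 1382 CPM, and the cortical transcription factor Tbr1 at 60.4 to 82.4 CPM. Of the 6 cerebellar markers, Gabra6 did not exceed 1.04 CPM, Pcp2 not 0.476 CPM and Cbln3 not 0.762 CPM. Every library held Calb1 (33.2 to 65.9 CPM), Zic1 (8.398 to 31.1 CPM) and Cbln1 (2.53 to 11.97 CPM). In sham cerebellum the means of Calb1, Zic1 and Cbln1 were 607.9, 586.6 and 808.4 CPM. The 6 cerebellar markers summed to 51.7 to 85.3 CPM in blast and 60.02 to 77.6 CPM in sham. The summed level of the 8 markers of striatal projection neurons was 261 to 509 CPM in blast and 334 to 481 CPM in sham. The pieces thus held cortical markers throughout, and striatal markers in every library with overlapping ranges in blast and sham.

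Hif3a (ENSRNOG00000017198) lies on chromosome 1 from 78976318 to 78997869 in the coordinates of the deposited table, for which no source used here names a build. It encodes the third alpha subunit of the hypoxia-inducible factors, several forms of which restrain the other two. RefSeq's rat genome GRCr8 gives the gene 2 start sites 5733 bases apart on the minus strand, and a count per gene adds transcripts of both. The 250 bases before each start are shown because Hif3a ranks first among the lower genes, with the letters CCAAT or their other-strand form in capitals.

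Hif3a, upstream start, chr1:86877839-86878088, minus strand: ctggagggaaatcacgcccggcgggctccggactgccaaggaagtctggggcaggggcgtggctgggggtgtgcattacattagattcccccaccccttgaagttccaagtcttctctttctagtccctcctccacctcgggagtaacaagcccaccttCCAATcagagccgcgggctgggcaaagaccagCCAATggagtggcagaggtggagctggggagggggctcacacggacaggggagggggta
Hif3a, downstream start, chr1:86872106-86872355, minus strand: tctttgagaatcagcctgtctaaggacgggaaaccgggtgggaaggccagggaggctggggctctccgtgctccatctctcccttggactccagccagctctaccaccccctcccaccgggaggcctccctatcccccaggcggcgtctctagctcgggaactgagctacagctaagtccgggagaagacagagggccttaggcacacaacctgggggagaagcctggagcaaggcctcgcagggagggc

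The upstream window holds CCAAT 2 times and the downstream window holds none. Over all 33469 RefSeq windows of this length, 34.0% have CCAAT on either strand, 5.59% CACGTG, 16.6% ACGTG and 17.5% AGAACA.

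In the blast libraries, in the order AC_4, AC_8, AC_22, AC_88 and AC_666 that is kept from here on, Hif3a stood at 1.74, 1.06, 1.54, 2.68 and 1.83 CPM. In the sham libraries AC_11, AC_13, AC_14, AC_15 and AC_33, also kept in this order, it stood at 6.67, 4.22, 2.73, 10.5 and 5.200 CPM. All 5 blast libraries lay below all 5 sham libraries, although the highest blast library, AC_88, and the lowest sham library, AC_14, nearly met. Blast libraries all below sham libraries were seen for 40 genes of 14918 (0.268%), and all above for 56 (0.375%). The raw counts behind these levels were 12 to 61 in blast and 43 to 115 in sham, so counting error is part of the spread. The log2 fold change of Hif3a was -1.72 ± 0.38, or 3.29-fold lower in blast, with an unadjusted p of 0.000547 and an adjusted p of 0.802 in edgeR's test. Among the 6 libraries it was -1.04 ± 0.36, within the 4 it was -2.77 ± 0.76, and with a term for the 4 it was -1.54 ± 0.43. Leaving out 1 library at a time gave -1.91 to -1.40. The authors' deposited table has a log2 fold change of -0.82 for it. That table's values for Kcnip2 (-0.68), Sla2 (-0.61) and Nfs1 (0.23) are also nearer 0 than the edgeR values given below. The sizes of deposited and edgeR fold changes are therefore not compared.

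Hif3a was also lower in blast in the other regions, where separate libraries were measured. Their titles mostly repeat the same numbers, and the labels do not say whether the same animals were used. In a model of all 40 libraries its log2 fold change was -1.72 in anterior cortex, -0.98 in hippocampus, -1.14 in amygdala and -1.34 in cerebellum. Cerebellar levels were 0.483 to 1.45 CPM in blast and 1.898 to 3.99 CPM in sham, without overlap. The share of all genes without overlap in cerebellum was not counted. Amygdalar levels were 1.83 to 4.299 CPM and 3.27 to 11.3 CPM, and hippocampal levels 1.15 to 2.15 CPM and 0.977 to 5.21 CPM, both overlapping. The anterior cortex difference less the mean of the other 3 was -0.57 ± 0.44 (edgeR adjusted p = 0.615), so a different size in the cortex was not detectable.

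Grm2 (ENSRNOG00000013171, chromosome 8 from 115344999 to 115358046) encodes metabotropic glutamate receptor 2, which sits on glutamatergic terminals and lowers their release. Its blast libraries stood at 61.3, 52.8, 79.04, 45.5 and 66.4 CPM and its sham libraries at 38.3, 48.99, 30.8, 40.1 and 25.6 CPM. Only blast AC_88 and sham AC_13 crossed. The log2 fold change was 0.73 ± 0.19, a 1.66-fold higher level, with an adjusted p of 0.802 in edgeR's test. It was 1.16 ± 0.20 among the 6 libraries, 0.27 ± 0.26 within the 4 and 0.87 ± 0.19 with the term, so this gene moved further from 0 when the 4 libraries were set aside. The 7 tested metabotropic receptors had a median of -0.06, 0.16 with the term and 0.26 among the 6. Among them Grm2 was the one with an unadjusted p under 0.05. Grm7 stood at a log2 fold change of 0.22 ± 0.19, Grm3 at -0.46 ± 0.28 and Grm5 at -0.24 ± 0.21, and Grm5 at 0.26 among the 6 libraries. In the other regions the log2 fold change of Grm2 was 0.20 in hippocampus, 0.62 in amygdala and 0.79 in cerebellum.

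**Figure D2:**
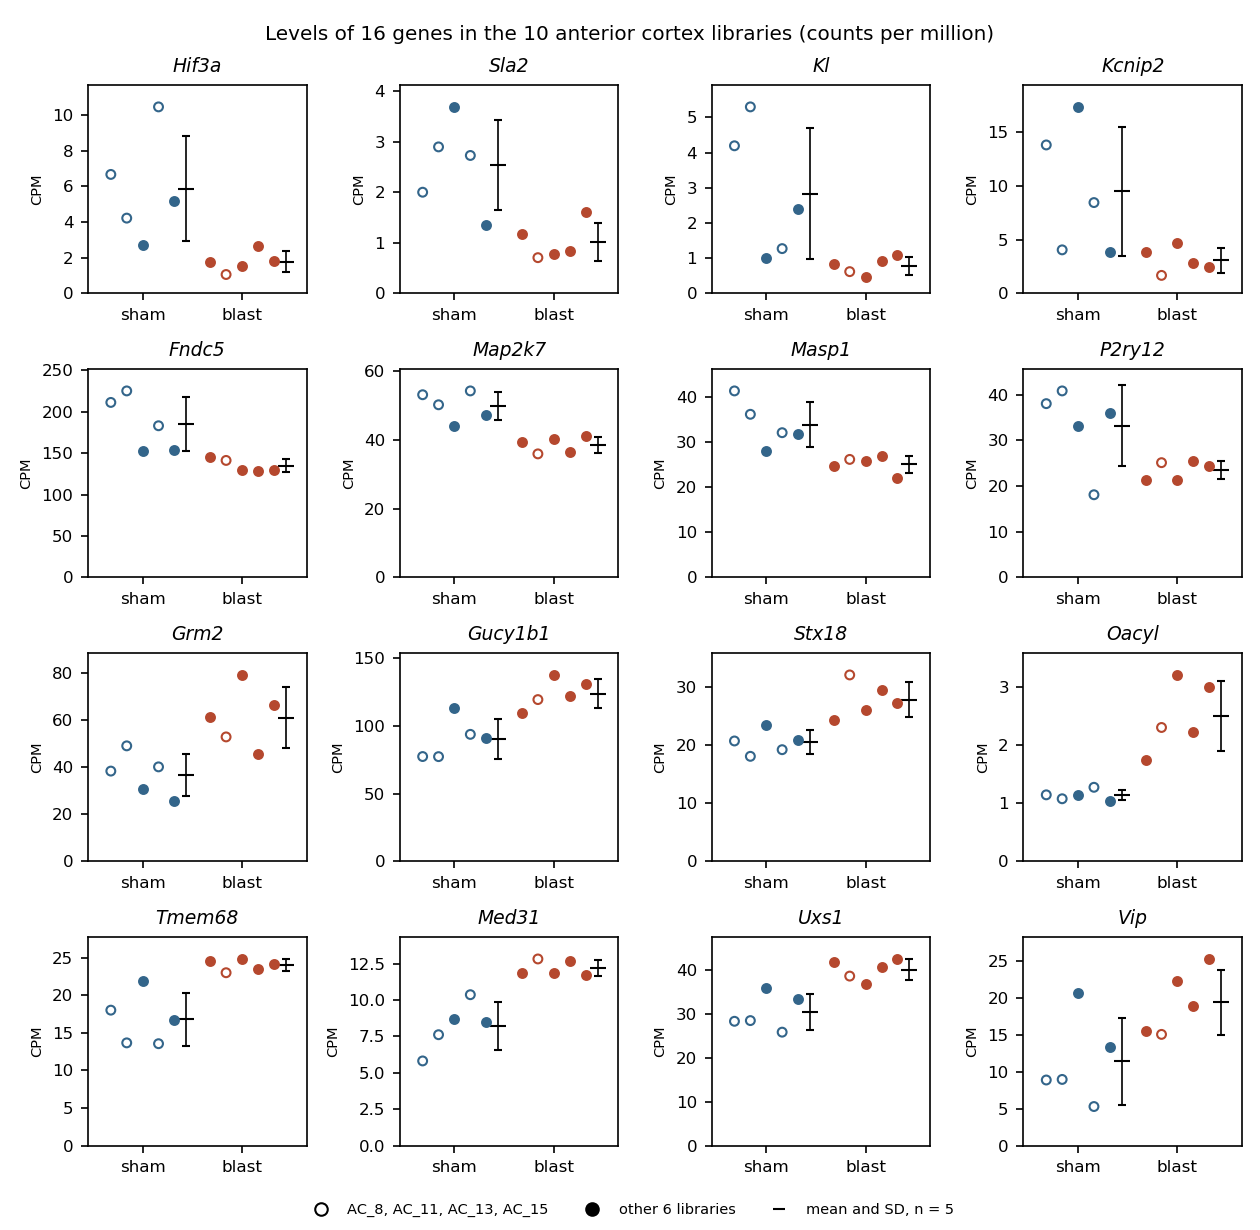
Levels in CPM (vertical axes, each from 0) of 16 genes in the 5 sham and 5 blast libraries; each point is 1 library, open points are AC_8, AC_11, AC_13 and AC_15, and bars are mean and SD (n = 5). Hif3a, Fndc5, Map2k7 and Masp1 have every blast library below every sham library, and Stx18, Oacyl, Tmem68, Med31 and Uxs1 have every blast library above.

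The plot of gene levels shows how the highest ranked genes differ in kind. Of the 15 genes with the lowest p in each direction, 30 in all, 12 had groups that did not overlap. Of all 14918 genes, 56 (0.375%) had every blast library above and 40 (0.268%) every blast library below. In 24 of the 30 the log2 fold change among the 6 libraries was nearer 0 than among all 10, and 16 of the 30 had an unadjusted p under 0.05 among those 6. All 30 kept their direction in each of the 23 alternatives tried. The 30 were picked by their p in these libraries, and the alternatives refit all or part of the same libraries. These counts are therefore no independent check of the genes.

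Among the higher genes, Gucy1b1 encodes the beta subunit of soluble guanylate cyclase, which turns a nitric oxide signal into cyclic GMP. It stood at 109, 119, 138, 122 and 131 CPM in blast and 77.4, 77.3, 113, 93.7 and 90.7 CPM in sham. The lowest blast library, AC_4, lay just under sham AC_14, and the log2 fold change was 0.45 ± 0.13 among 10 libraries and 0.29 ± 0.12 among the 6. Of the 10 tested members of the nitric oxide and cyclic GMP list 5 were higher and 5 lower, with a median log2 fold change of -0.0079, 0.13 with the term and 0.11 among the 6. Nos1, the neuronal nitric oxide synthase, stood at -0.41 ± 0.24 and Prkg2, a cyclic GMP-dependent kinase, at -0.45 ± 0.21.

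Stx18, a syntaxin of the endoplasmic reticulum, stood at 24.2, 32.003, 25.98, 29.4 and 27.2 CPM in blast and at 20.7, 18.04, 23.5, 19.2 and 20.9 CPM in sham. Every blast library was above every sham library, with a log2 fold change of 0.44 ± 0.13 that was 0.26 ± 0.12 among the 6. Tmem68, a membrane protein of the same organelle, stood at 24.6, 22.99, 24.8, 23.5 and 24.2 CPM in blast and at 18.01, 13.7, 21.9, 13.5 and 16.7 CPM in sham. Its blast libraries were closer together than its sham libraries. Med31, a subunit of the Mediator complex that links transcription factors to RNA polymerase, stood at 11.7 to 12.8 CPM in blast and 5.81 to 10.4 CPM in sham. Uxs1 makes UDP-xylose, the first sugar of proteoglycan chains, and stood at 36.99 to 42.6 CPM in blast and 25.9 to 35.98 CPM in sham. Oacyl was scarce, at 1.74 to 3.200 CPM in blast and 1.04 to 1.27 CPM in sham, and its log2 fold change of 1.14 ± 0.31 was 1.22 ± 0.39 among the 6. Tmco6 (0.60 ± 0.18) was also without overlap.

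Psmg3, a chaperone of proteasome assembly, had a log2 fold change of 0.85 ± 0.25, and Cmc4, a small protein of mitochondria, one of 0.77 ± 0.23. Nfs1, the cysteine desulfurase that supplies sulfur for iron-sulfur clusters, is among the higher genes and is uncertain. The table holds 2 identifiers of that name on chromosome 3, at 151665814 to 151688149 and at 152200936 to 152222647. The first had 4, 63, 335, 159 and 13 counts in blast and 11, 0, 2, 0 and 2 in sham, a log2 fold change of 4.41 ± 1.08. The second had 6, 26, 436, 248 and 246 counts in blast and 59, 81, 188, 31 and 97 in sham. Summed over both, blast libraries stood at 0.695, 7.87, 19.4, 31.2 and 18.9 CPM and sham libraries at 6.67, 6.70, 12.1, 2.82 and 7.92 CPM, with AC_4 below all sham libraries. Such copies can exchange reads in counting, so the level of either cannot be read alone.

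Among the lower genes, Fndc5, the membrane precursor of the secreted peptide irisin, stood at 145, 141, 129, 128 and 129.9 CPM in blast. Its sham libraries stood at 211, 225, 152, 183 and 154 CPM. No blast library reached the lowest sham library, and the log2 fold change was -0.46 ± 0.13, or -0.21 ± 0.091 among the 6. Map2k7, a kinase that activates JNK, stood at 35.9 to 41.1 CPM in blast and 44.1 to 54.2 CPM in sham (-0.36 ± 0.11, and -0.22 ± 0.10 among the 6). Masp1, a protease that starts the lectin pathway of complement, stood at 22.1 to 26.9 CPM in blast and 28.04 to 41.3 CPM in sham (-0.43 ± 0.13, and -0.27 ± 0.12 among the 6). For Fndc5, Map2k7 and Masp1 the lowest sham values were those of AC_14 and AC_33, the sham libraries outside the 4.

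Pura, which encodes a single-stranded nucleic acid-binding protein needed in neurons, stood at 20.3, 15.6, 18.7, 20.7 and 19.6 CPM in blast and 44.97, 31.7, 21.3, 42.4 and 22.1 CPM in sham. Sham AC_14 and AC_33 stood next to the blast libraries, and the log2 fold change went from -0.77 ± 0.21 to -0.14 ± 0.12 among the 6. Rad54l2, a helicase-like nuclear protein, went from -1.01 to -0.31 and Sypl2, a synaptophysin relative, from -1.23 to -0.38. Slc13a5, the sodium-coupled citrate transporter, went from -0.63 to -0.32, and Mindy2, a deubiquitinase, from -0.55 to -0.22. Lima1, an actin-binding protein, stood at -0.41 and -0.33.

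Kcnip2 encodes KChIP2, an auxiliary subunit of the Kv4 channels that carry A-type potassium current. It stood at 3.82, 1.68, 4.69, 2.83 and 2.49 CPM in blast and 13.8, 4.06, 17.4, 8.45 and 3.84 CPM in sham. Sham AC_33 and AC_13 lay below the highest blast library, AC_22. The log2 fold change of -1.59 ± 0.44 was -1.60 ± 0.54 among the 6. Sla2, an adaptor that dampens antigen receptor signals in lymphocytes, stood at 1.18, 0.707, 0.781, 0.842 and 1.61 CPM in blast and 2.001, 2.897, 3.69, 2.73 and 1.36 CPM in sham. Sham AC_33 lay below blast AC_666, and the log2 fold change of -1.31 ± 0.38 was -1.23 ± 0.48 among the 6. The 6 lymphocyte markers, all in the table, summed to 9.20 to 12.2 CPM in blast and 8.01 to 18.5 CPM in sham. Of these Cd4, which microglia also express, stood at 6.93 to 17.1 CPM, and Cd3e and Cd8a were at 0 in 3 libraries each.

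Kl, which encodes Klotho and is strongly expressed in choroid plexus, stood at 0.834, 0.619, 0.454, 0.919 and 1.097 CPM in blast. In sham it stood at 4.19, 5.296, 1.02, 1.27 and 2.400 CPM, where AC_14 lay within the blast range and AC_15 just above it. The choroid plexus markers overlapped between the groups. All 6 of 6 were in the table, their sum was 5.48 to 15.1 CPM in blast and 4.73 to 26.2 CPM in sham, and Ttr, the defining one, was at 0 in AC_13, which had the highest Kl, and in AC_15. Ttr was highest in sham AC_33 at 15.7 CPM and blast AC_4 at 3.68 CPM.

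A term for the 4 libraries ranked partly other genes first. No gene was called in that fit either, and 562 of 14918 had an unadjusted p under 0.05 (3.77%), 295 of them higher and 267 lower. Grm2, Gucy1b1 and Stx18 were among its higher genes and Hif3a and Kcnip2 among its lower ones. In several genes that entered through this fit AC_8 stood apart from the other blast libraries. Inpp1, a phosphatase of inositol phosphates, stood at 23.3 CPM in AC_8, at 10.2 to 11.8 CPM in the other blast libraries and at 6.57 to 10.04 CPM in sham. Pkia, an inhibitor of protein kinase A, had a log2 fold change of 0.40 ± 0.12 with the term and 0.21 among the 6. Stambp, an endosomal deubiquitinase, had 0.50 and 0.31, Jakmip3 0.41 and 0.25, and Far1, which makes fatty alcohols for ether lipids, 0.33 and 0.22.

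On the lower side of that fit, Slc2a10, a glucose transporter, stood at -1.20 ± 0.25 with the term and -0.95 ± 0.21 among the 6, against -0.61 ± 0.39 over all 10. Pcbp4, which binds poly(C) RNA, stood at -0.37 with the term and -0.26 among the 6. Wdr66, a protein of motile cilia, had 5.57 to 7.43 CPM in blast and 7.86 to 10.9 CPM in sham without overlap, and -0.53 ± 0.17 over all 10. The ribosomal proteins Rps10 and Rpl36a stood at -0.49 and -0.42 with the term, and at -0.16 ± 0.24 and -0.18 ± 0.18 over all 10.

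With the 4 libraries left out, 2 genes of 15517 were called (0.0129%), and 416 had an unadjusted p under 0.05 (2.68%). Fam50a stood at 0.278, 0.328, 0.153 and 0.439 CPM in the 4 blast libraries and at 8.71 and 8.08 CPM in sham AC_14 and AC_33. In the 4 libraries left out it stood at 0 in blast AC_8 and at 0.0953, 0.331 and 0 CPM in sham, so the call rests on 2 sham libraries. LOC100910418 stood at 0.0756 to 0.383 CPM in the same blast libraries and at 9.54 and 16.3 CPM in those 2 sham libraries, with AC_15 at 4.64 CPM and AC_11 at 0.

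Gene lists for neurons, synapses, energy supply, stress and other cell types were compared next, 48 lists with 774 distinct genes tested. For each, the number of higher and lower members and the median log2 fold change are given, against 7458 higher of 14918 (50.0%) and a median of -7.53e-05 over all genes. With the term 7615 were higher (51.0%), and among the 6 libraries 7991 of 15517 (51.5%). No member of any list was called (0.0% of all genes), and counts at an unadjusted p under 0.05 are to be read against 4.29%. The median had the same sign in all 3 fits for 26 of the 48 lists, the other sign with the term for 17 and the other sign among the 6 libraries for 19.

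**Figure D3:**
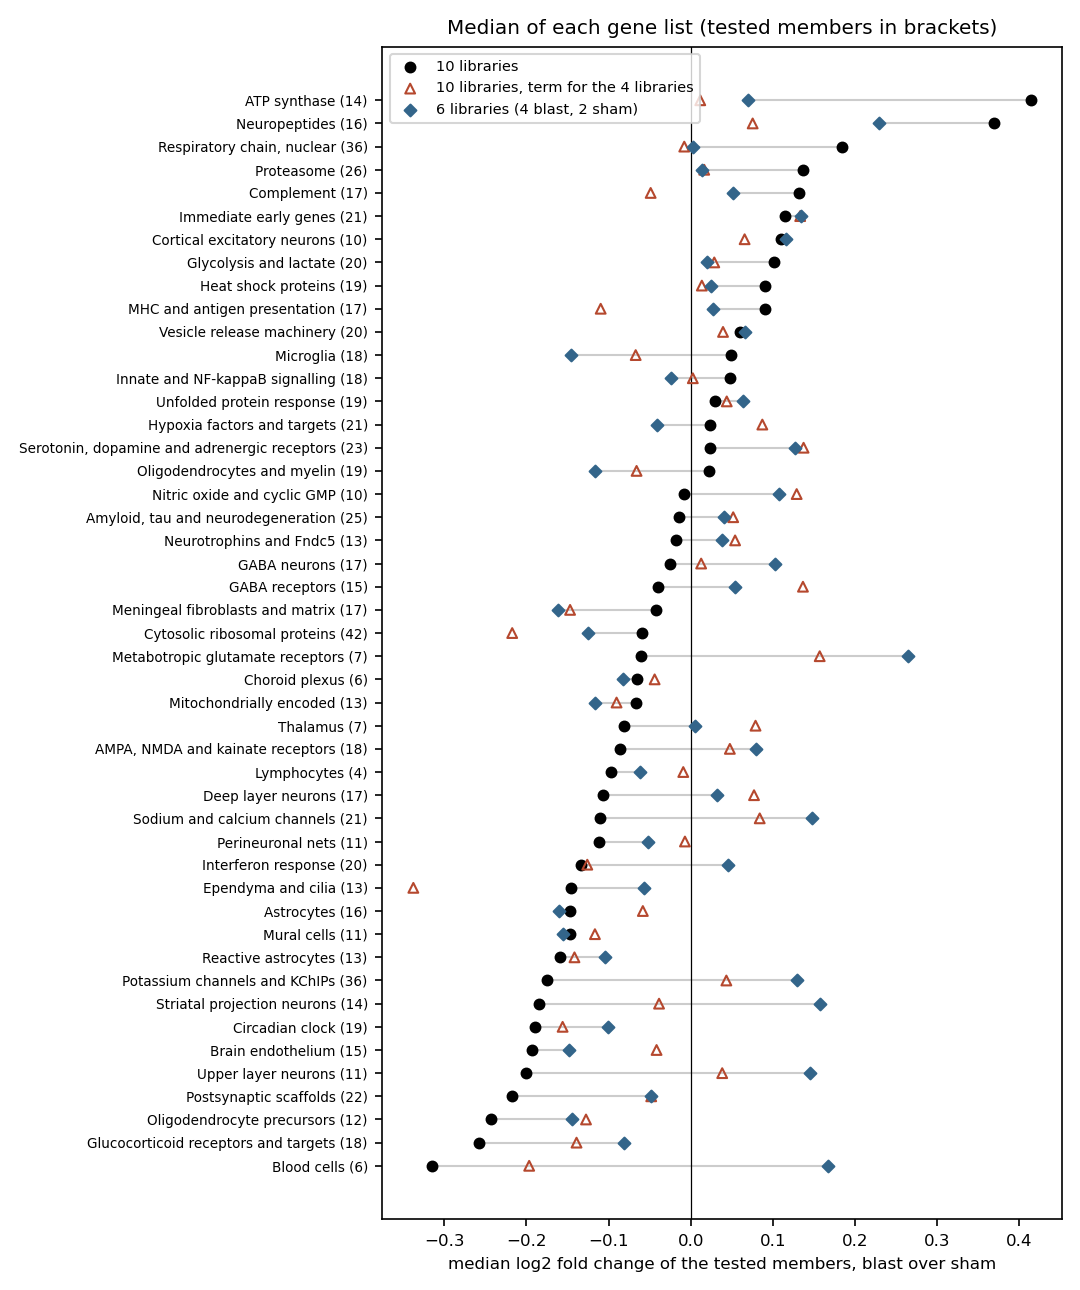
Median log2 fold change, blast over sham, of the tested members of each gene list (horizontal axis) for all 10 libraries (filled circles), for a model with a term for AC_8, AC_11, AC_13 and AC_15 (triangles) and for the 6 other libraries (diamonds). ATP synthase, neuropeptides and the nuclear respiratory chain stand at 0.41, 0.37 and 0.18 over 10 libraries, at 0.012, 0.075 and -0.0079 with the term, and at 0.07, 0.23 and 0.0031 among the 6.

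The plot of list medians shows that the 3 fits often place a list differently. Neuropeptides, which cortical interneurons store and release beside GABA, had every tested member higher: 16 of 16, with a median of 0.37. Vip (vasoactive intestinal peptide) stood at 15.4, 15.03, 22.2, 18.9 and 25.2 CPM in blast and 8.86, 8.94, 20.6, 5.27 and 13.4 CPM in sham. Sst (somatostatin) stood at 46.1, 27.5, 67.2, 69.2 and 75.98 CPM in blast and 10.9, 14.2, 70.9, 9.45 and 35.997 CPM in sham. In both genes the 3 lowest sham libraries are AC_11, AC_13 and AC_15, and sham AC_14 reached the blast values. The log2 fold change of Vip was 0.76 ± 0.31 over 10 libraries and 0.26 ± 0.22 among the 6, that of Sst 1.01 ± 0.50 and 0.26, and that of Crh, the stress peptide corticotropin-releasing hormone, 0.80 ± 0.41 and 0.42. Tac3 (tachykinin 3) stood at 1.22 and 0.91, and its level in blast AC_8 was 0.442 CPM against 5.696 to 8.65 CPM in the other blast libraries. With the term, 12 of the 16 were higher at a median of 0.075, and among the 6 libraries 14 at 0.23.

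Other interneuron genes lay on both sides of 0. Of 17 tested GABA neuron genes 7 were higher, with a median of -0.025 (0.013 with the term and 0.10 among the 6), and Pvalb, the calcium buffer of fast-spiking cells, stood at 0.37 ± 0.23. Lhx6, a transcription factor of Pvalb and Sst cells, stood at -0.54 ± 0.21, with 3.502 to 4.86 CPM in blast and 4.86 to 7.78 CPM in sham. It was the only one of the 17 with an unadjusted p under 0.05. Over 10 libraries, of 10 cortical excitatory genes 7 were higher (median 0.11), of 11 upper layer genes 3 (median -0.20) and of 17 deep layer genes 8 (median -0.11). All 3 medians were above 0 in the other fits: upper layer genes had 8 higher with the term and 7 among the 6 (medians 0.038 and 0.15), deep layer genes 10 and 11 (medians 0.077 and 0.031) and cortical excitatory genes 8 and 9 (medians 0.066 and 0.12). Among upper layer genes Lamp5 stood at 0.45 ± 0.20 and Calb1 at 0.25 ± 0.17, and Cux1, a transcription factor, at -0.51 ± 0.22. Bcl11b and Foxp2, factors of deep layer neurons, stood at -0.36 ± 0.21 and -0.51 ± 0.31. Among the 6 libraries Cux1, Bcl11b and Foxp2 stood at -0.062, 0.11 and -0.024.

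At the synapse, postsynaptic scaffold genes were mostly lower, 20 of 22, with a median of -0.22. Shank1, which joins receptor complexes to the actin skeleton of the spine, stood at 2061, 2572, 1605, 1646 and 1694 CPM in blast and at 4060, 2833, 1866, 4305 and 2266 CPM in sham. The groups overlapped. Its highest blast library was AC_8, one of the 4, and its highest sham libraries, AC_15 and AC_11, are also among them. The log2 fold change was -0.68 ± 0.23 over 10 libraries and -0.24 ± 0.14 among the 6. Dlgap3 stood at -0.35 ± 0.14 and Shank2 at -0.49 ± 0.23, the other members with an unadjusted p under 0.05, and at -0.084 and -0.13 among the 6. The list's median was -0.048 with the term and -0.049 among the 6 libraries, with 13 and 13 lower.

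Glutamate receptor channels had 13 of 18 lower with a median of -0.086, but 9 lower with the term and 6 among the 6, at medians of 0.048 and 0.079. Grin2c, an NMDA receptor subunit, stood at -0.30 ± 0.13, and Cacng2 (stargazin), which carries AMPA receptors to the synapse, at -0.64 ± 0.33, with 133 CPM in blast AC_8 against 53.4 to 72.2 CPM in the other blast libraries. GABA receptors had 9 of 15 lower (median -0.039) over 10 libraries, 3 with the term and 2 among the 6 (medians 0.14 and 0.054). Genes of vesicle release had 8 of 20 lower (median 0.06, 0.039 with the term and 0.066 among the 6), where Snap25 stood at 0.24 ± 0.14 and Cplx2 at -0.40 ± 0.20. Potassium channels and their subunits had 25 of 36 lower, with a median of -0.18 that was 0.043 with the term and 0.13 among the 6. Kcnab2, a beta subunit of Kv1 channels, did not overlap, at 252 to 288 CPM in blast and 295 to 447 CPM in sham (-0.40 ± 0.12). Kcnt1, a sodium-activated potassium channel, stood at 0.29 ± 0.12. For the glutamate receptor channel, GABA receptor and potassium channel lists, then, the median lay below 0 over 10 libraries and above 0 in both other fits.

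Genes of mitochondrial energy supply were mostly higher over 10 libraries. All 14 ATP synthase genes and 33 of 36 nuclear respiratory chain genes were higher, with medians of 0.41 and 0.18, and none of them had an unadjusted p under 0.05. Cox5a, a subunit of cytochrome c oxidase, stood at 87.5, 56.8, 112, 90.2 and 93.97 CPM in blast and at 45.4, 44.4, 94.03, 39.5 and 80.95 CPM in sham. The lowest blast library, AC_8, and the 3 lowest sham libraries are the 4 libraries that stand apart. With the term the medians were 0.012 and -0.0079, with 10 and 13 higher, and among the 6 libraries 0.07 and 0.0031. Genes of the mitochondrial genome had 8 of 13 lower, with a median of -0.067 (-0.09 with the term and -0.12 among the 6), and Mt-nd4 stood at -0.49 ± 0.22.

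Protein synthesis and breakdown were divided too. Ribosomal protein genes had 28 of 42 lower at a median of -0.06, 41 lower at -0.22 with the term and 35 at -0.13 among the 6. Rpl3 stood at -0.31 ± 0.13 and Rpsa at -0.24 ± 0.11. The proteasome list had 17 of 26 higher (median 0.14), and 5 of its members had an unadjusted p under 0.05. Psmc4 (0.42 ± 0.15), Psma4 (0.33 ± 0.15) and Psma1 (0.47 ± 0.21) were 3 of the 4 higher ones and Psmc1 (-0.35 ± 0.14) the lower one. The list's median was 0.016 with the term and 0.014 among the 6.

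**Figure D4:**
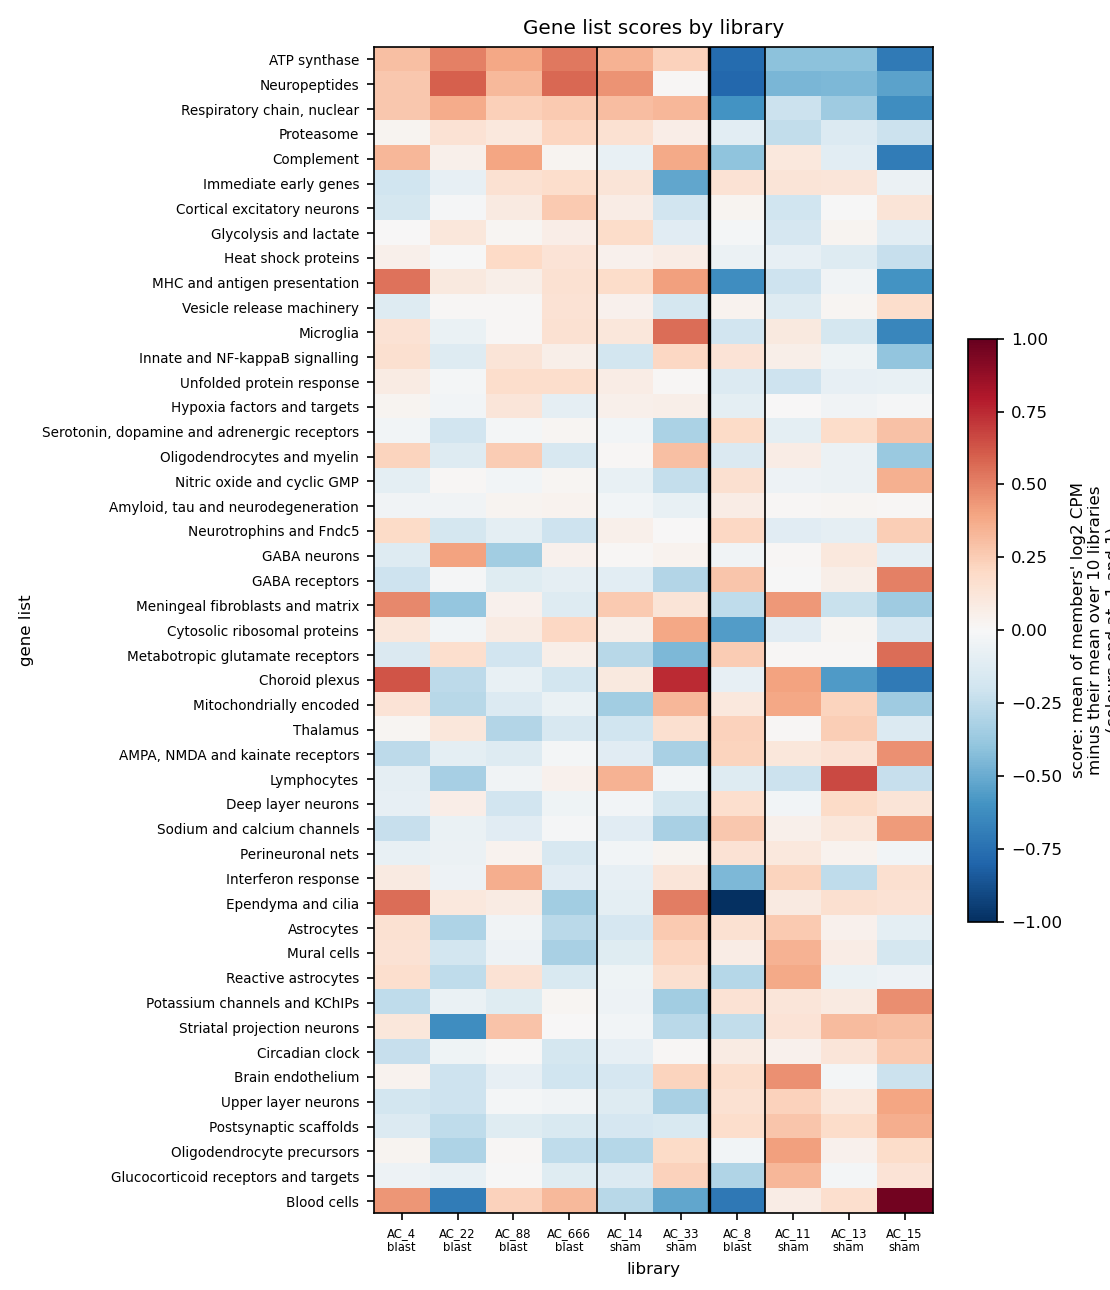
Score of each gene list (vertical axis) in each library (horizontal axis), as the mean of its members' log2 CPM less their mean over the 10 libraries; red is above that mean and blue below, thin lines divide blast from sham and the thick line sets off AC_8, AC_11, AC_13 and AC_15. ATP synthase, neuropeptide and respiratory chain scores are above 0 in the 6 other libraries and below 0 in the 4, in blast and sham alike.

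The map of list scores shows the same split by library. ATP synthase scores were 0.23 to 0.53 in the 6 libraries and -0.77 to -0.41 in the 4, and respiratory chain scores 0.24 to 0.37 and -0.62 to -0.21. Postsynaptic scaffold scores ran the other way, -0.25 to -0.12 in the 6 and 0.17 to 0.36 in the 4. In each of these lists blast AC_8 lay with the sham libraries of the 4, and sham AC_14 and AC_33 with the blast libraries of the 6.

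Clock and stress hormone genes were among the lists whose median had the same sign in all 3 fits. The circadian clock genes had 16 of 19 lower, with medians of -0.19 over 10 libraries, -0.16 with the term and -0.10 among the 6. The number of lower members was smaller in those fits, 11 and 13 of the 19. Per3 stood at 87.5, 91.2, 98.5, 96.7 and 66.5 CPM in blast and 109.9, 111, 94.6, 119 and 117 CPM in sham (-0.33 ± 0.13), with sham AC_14 within the blast range. Nr1d2, a repressor of the loop, stood at -0.31 ± 0.12, Cry2 at -0.24 ± 0.11 and Arntl, which encodes the activator BMAL1, at 0.30 ± 0.14. The time of day of tissue collection is not in the labels.

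Receptors and targets of glucocorticoids, which include Hif3a, had 13 of 18 lower with a median of -0.26, and 12 and 12 lower with medians of -0.14 and -0.081 with the term and among the 6. Sgk1, a kinase that glucocorticoids induce, stood at 37.03, 46.8, 53.99, 54.2 and 57.2 CPM in blast and 78.3, 54.6, 57.2, 70.5 and 82.2 CPM in sham. Only blast AC_666 lay above the lowest sham library, AC_13, and the log2 fold change of -0.46 ± 0.16 was -0.47 ± 0.19 among the 6. In the other regions it was -0.36 in hippocampus, -0.48 in amygdala and -0.26 in cerebellum. Plin4, a lipid droplet protein, stood at -0.56 ± 0.24 and Nr3c2, the mineralocorticoid receptor, at -0.38 ± 0.19.

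Other stress programmes were divided. Hypoxia factors and their targets had 12 of 21 higher with a median of 0.024, but 7 higher among the 6, where the median was -0.041 (0.087 with the term). Vegfa stood at 0.47 ± 0.21, Bnip3 at 0.34 ± 0.16 and Epas1, the gene of HIF-2 alpha, at -0.36 ± 0.20. The unfolded protein response had 13 of 19 higher (median 0.03, 0.044 with the term and 0.063 among the 6), with Ddit3, the gene of the factor CHOP, at 0.57 ± 0.25. Heat shock proteins had 16 of 19 higher (median 0.091), 11 with the term and 12 among the 6 (medians 0.014 and 0.025). Immediate early genes, which mark recent neuronal activity, had 13 of 21 higher (median 0.11, 0.13 with the term and 0.13 among the 6), with Npas4 at 0.66 ± 0.37 and Jund at -0.46 ± 0.18. Genes of amyloid, tau and other neurodegeneration pathways had 12 of 25 higher and a median of -0.014 (0.052 with the term and 0.04 among the 6), and none of them had an unadjusted p under 0.05. Neurotrophins and their receptors, with Fndc5, had 5 of 13 higher (median -0.018, 0.054 with the term and 0.038 among the 6).

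Glial lists differed by cell type. Oligodendrocyte precursor genes had 11 of 12 lower, with medians of -0.24, -0.13 and -0.14 in the 3 fits, and Pdgfra, their defining receptor, stood at -0.32 ± 0.15. Myelin genes had 12 of 19 higher (median 0.022) over 10 libraries but 13 lower with the term and 18 among the 6 (medians -0.066 and -0.12). Myrf, the transcription factor of myelination, stood at -0.31 ± 0.12. Astrocyte genes had 11 of 16 lower (median -0.15), 13 with the term (median -0.058) and 15 among the 6 (median -0.16). Glul, the glutamine synthetase, stood at -0.29 ± 0.14 and Slc1a2, the main glutamate transporter, at -0.60 ± 0.36. The astrocyte score varied among libraries with an SD of 0.22 in blast and 0.20 in sham (n = 5 each). Reactive astrocyte genes had 10 of 13 lower (median -0.16, -0.14 with the term and -0.10 among the 6).

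Microglial genes had 10 of 18 higher with a median of 0.05, but 13 lower with the term and 14 among the 6, at medians of -0.067 and -0.15. P2ry12, a receptor by which resting microglia sense nucleotides, stood at 21.3, 25.1, 21.3, 25.5 and 24.3 CPM in blast and 38.01, 40.8, 33.2, 18.1 and 36.1 CPM in sham. Every sham library but AC_15 was above every blast library. The log2 fold change was -0.50 ± 0.19 over 10 libraries and -0.59 ± 0.12 among the 6. Cx3cr1, the fractalkine receptor, stood at -0.32 ± 0.22 and its range of 22.2 to 42.2 CPM in blast overlapped with 27.8 to 54.97 CPM in sham.

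Immune lists held few members of low p. Antigen presentation genes had 9 of 17 higher (median 0.09) and 10 among the 6 (median 0.027), but 11 lower with the term (median -0.11), with RT1-CE5, a class I molecule, at 0.76 ± 0.34. Complement genes had 11 of 17 higher (median 0.13) and 10 among the 6 (median 0.052), but 9 lower with the term (median -0.049), and none with an unadjusted p under 0.05. Interferon response genes had 13 of 20 lower (median -0.13) and 12 with the term (median -0.13), but 11 higher among the 6 (median 0.046). Among them Mx2 stood at 9.02 CPM in blast AC_8 and 20.2 to 24.5 CPM in the other blast libraries, against 10.4 to 62.7 CPM in sham. Genes of innate signalling had 11 of 18 higher (median 0.048, 0.0026 with the term and -0.024 among the 6), with Casp1, the inflammasome protease, at 0.84 ± 0.37 and Tgfb1 at -0.42 ± 0.19.

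The endothelial, mural and meningeal lists had more lower than higher members in all 3 fits. Endothelial genes had 11 of 15 lower (median -0.19, -0.042 with the term and -0.15 among the 6), and Tek, the angiopoietin receptor, stood at -0.31 ± 0.16. Mural cell genes had 9 of 11 lower (median -0.15, -0.12 with the term and -0.16 among the 6), with Myh11, smooth muscle myosin, at -0.58 ± 0.30. Meningeal fibroblast genes had 10 of 17 lower (median -0.042, -0.15 with the term and -0.16 among the 6), with Col1a2 at -0.59 ± 0.26. Haemoglobin and other blood markers, 4 of 6 in the table, summed to 129 to 396 CPM in blast and 204 to 575 CPM in sham. The blood list had 5 of 6 lower (median -0.31) and 5 with the term (median -0.20), but 5 higher among the 6 (median 0.17). Hba-a2 stood at -0.47 ± 0.31 over 10 libraries and 0.062 among the 6, and since the table holds 2 identifiers of that name, its level is uncertain. Perineuronal net genes had 8 of 11 lower (median -0.11, -0.007 with the term and -0.052 among the 6), with the proteoglycan Bcan at -0.36 ± 0.14 and Crtac1 at 0.34 ± 0.14. Receptors of serotonin, dopamine and noradrenaline had 14 of 23 higher (median 0.023, 0.14 with the term and 0.13 among the 6), with Adra2c at -0.35 ± 0.17.

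The blast difference of the anterior cortex was then compared with the mean blast difference of the hippocampus, amygdala and cerebellum, in 1 model of all 40 libraries. edgeR's test covered 16378 genes and called 0, with a smallest adjusted p of 0.277, and 1647 genes had an unadjusted p under 0.05 (10.1%). This model gives each gene 1 spread for all regions, while the cortex libraries vary more than those of the other regions. The standard errors of the differences below may therefore be too small. In limma voom with quality weights per region, 672 genes (4.10%) had an unadjusted p under 0.05, and the smallest adjusted p was 0.906. Without sham AC_14 255 genes were called, and without the 4 libraries 0 were called and 531 had an unadjusted p under 0.05. Stx18 had a log2 fold change of 0.43 in the cortex, -0.069 in hippocampus, 0.085 in amygdala and -0.039 in cerebellum, a difference of 0.44 ± 0.094 (edgeR adjusted p = 0.277). Uxs1 had 0.39 in the cortex and -0.035, 0.077 and -0.056 elsewhere (difference 0.40 ± 0.088, edgeR adjusted p = 0.277). Nop2, a methyltransferase of ribosomal RNA, stood at 0.47 in the cortex and at -0.18, 0.017 and 0.036 in the other regions. Mterf3, a factor of mitochondrial ribosome assembly, stood at 0.82 in the cortex and at -0.058, 0.14 and -0.05 elsewhere.

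**Figure D5:**
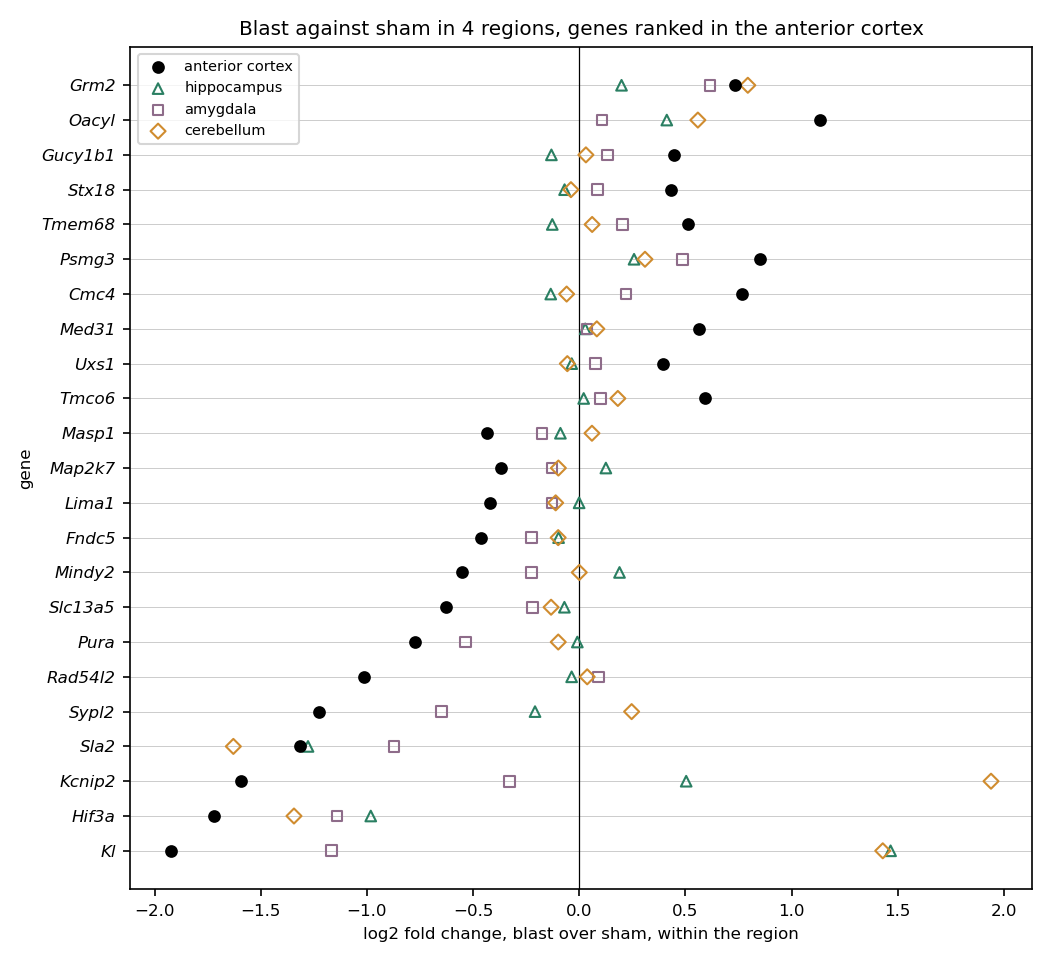
Log2 fold change, blast over sham (horizontal axis), of 23 of the highest ranked anterior cortex genes (vertical axis) within anterior cortex (filled circles), hippocampus (triangles), amygdala (squares) and cerebellum (diamonds), from 1 model of 40 libraries. Hif3a and Sla2 lie left of 0 in all 4 regions, and Kcnip2 and Kl have opposite signs in different regions.

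The plot of the 4 regions shows these patterns side by side. Of the 30 highest ranked genes, 28 had the same sign in amygdala, 18 in hippocampus and 17 in cerebellum, and 12 had it in all 3. Over all 14845 genes tested in both models the sign was the same as in the cortex for 10544 in amygdala (71.0%), 5941 in hippocampus, 8693 in cerebellum (58.6%) and 2776 in all 3 (18.7%). Sla2 stood at -1.31 in the cortex, -1.28 in hippocampus, -0.87 in amygdala and -1.63 in cerebellum. Kcnip2 stood at -1.59, 0.50, -0.33 and 1.94 in the same order, a difference of -2.30 ± 0.51 (edgeR adjusted p = 0.277). Its cerebellar level was low, 0.234 to 2.901 CPM in blast and 0.156 to 0.714 CPM in sham. Kl varied far more in hippocampus, where blast libraries ranged over 2.54 to 516 CPM and sham libraries over 0.182 to 290.4 CPM. Ttr had a mean of 859.8 CPM in sham hippocampus against 3.83 CPM in sham cortex.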

How the data were processed

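Total RNA was extracted with Qiazol and RNeasy columns and made into libraries with a NEBNext Ultra RNA kit, per the labels. The submitters' processing notes name CASAVA. Aligner, counter, strand setting, annotation and build: not given in the sources used here. The deposited table of the authors holds unnormalized counts, whole numbers for 23366 genes of the anterior cortex, per the file headers. It also holds a deposited normalized signal, equal to the count over 1 factor per library, and a deposited log2 fold change with its p-value, raw and adjusted. These were used only where named. Groups come from the tissue and treatment labels.

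Counts were filtered with filterByExpr, scaled by TMM and tested two-sided with edgeR 4.0.16 (robust quasi-likelihood, 10 libraries, no covariate), with Benjamini-Hochberg adjustment over 14918 genes. The standard error is the log2 fold change over the square root of F. Alternatives used DESeq2 1.42.0, limma 3.58.1 (voom), sva 3.50.0, other filters and libraries left out. Totals of 11268097 counts or more make 1 count worth at most 0.095 CPM. No 2 libraries of a group agreed within sampling noise (smallest chi-square per degree of freedom 8.32). Scripts were tested on simulated data.

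The libraries, gene lists and tests were chosen with earlier results of these data known. The lists hold 881 names, of which 804 were tested. Of the others, 36 were not among the counted genes and the rest did not pass the count filter. Genes were named by rule: the 15 lowest p in each direction, up to 4 per list, the 10 lowest p in each direction with a term for AC_8, AC_11, AC_13 and AC_15, the 8 lowest p of the comparison with the other regions, and genes called in an alternative with few calls. Not all are printed.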

Additional observations from a re-analysis of the deposited data

Results flagged for a closer look

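In each group of 5 libraries the highest or lowest value was checked for a gap to the next that took up over 0.71 of the group's range. Of 382 groups examined (library measures, genes and list scores) 30 were flagged, and chance alone flags about 1 group in 20. The ratio of gap to range is given for each.

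AC_22 was flagged for its total counts (0.908) and for its 16753 genes with at least 10 counts (0.776). AC_8 was flagged among blast libraries for genes detected at equal depth (0.887), for its 24.3% of counts in genes over 5000 bases (0.933) and for its 0.470% in lincRNA genes (0.894).

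The same library accounted for most flagged genes in blast. It was highest for Jakmip3 (0.802), Inpp1 (0.883), Far1 (0.837), Zmym6 (0.848), Bcl11b (0.745), Foxp2 (0.779), Cacng2 (0.765), Epas1 (0.743), P2ry13 (0.738), Myh11 (0.745) and F5 (0.783). It was lowest for Rpl36a (0.840) and Mx2 (0.725), and for the scores of neuropeptides (0.765), the nuclear respiratory chain (0.866) and ATP synthase (0.822).

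Blast AC_4 was highest for Glul (0.828), Ttr (0.766) and the choroid plexus score (0.784). In sham, AC_33 was highest for Ttr (0.935) and Dipk1c (0.737) and lowest for Gria4 (0.731), AC_14 was highest for Snap25 (0.760), and AC_11 was highest for Nfs1 (0.847) and P2ry13 (0.716).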

How the results depend on the processing

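No gene was called under any alternative for blast against sham, except 2 without the 4 libraries AC_8, AC_11, AC_13 and AC_15 and 10 within them (1 blast against 3 sham libraries, where the lone blast library is assumed to vary like the sham ones). Leaving out 1 library at a time gave 0 to 0 calls. The 640 genes at an unadjusted p under 0.05 became 3014 with sample quality weights in voom, 1278 with no filter on low counts, 416 without the 4 libraries, 1161 within them, and 324 to 1885 with 1 library left out: 1885 without blast AC_8, 325 without AC_22, 374 without AC_88, 342 without AC_666, and 324 without sham AC_11, 340 without AC_13, 1869 without AC_14 and 1107 without AC_33. In the comparison with the other regions 0 to 255 genes were called with 1 library left out, 255 of them without sham AC_14. Its 1647 genes at an unadjusted p under 0.05 became 3488 without blast AC_8, 3467 without sham AC_14, 2785 without sham AC_33, 531 without the 4 libraries and 672 with quality weights. With the title number as a replicate block (voom, correlation 0.0209) that comparison called 0 genes and had 1796 at an unadjusted p under 0.05, against 1731 without the block. The numbers were not taken as pairing samples, since the labels do not say that they are animals. Same-numbered libraries of 2 regions correlated in their deviations by -0.151 to 0.439, and 7 of 29 pairs exceeded 0.1. Libraries of different numbers were not compared in this way, so these correlations cannot show whether the numbers pair samples.

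Of 131 named genes, these changed sign. Without the 4 libraries the log2 fold change was 0.11 for Bcl11b, 0.12 for Sulf1, 0.26 for Grm5, -0.050 for Ndufa4, 0.054 for Ppargc1a, 0.088 for Mx2 and 0.062 for Hba-a2. Within them it was -1.79 for Tac3, -0.23 for Calb1 and 0.27 for P2ry13. Grm5 was at 0.081 with the term for the 4 and 0.042 with 1 surrogate variable. With 1 library left out Rps10 ranged from -0.27 to 0.015 and Ttr from -2.78 to 1.16, both highest without sham AC_33, and Ttr was at 0.20 in voom and 0.77 with quality weights. The cause of these changes was not tested. Of 1104 list medians under alternatives, 35 moved by more than the spread of the list's score between libraries. Depth limits the scarce genes: Hif3a rests on 12 to 115 counts per library, and Sla2, Kl and Oacyl stand at a few CPM.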
